A study of Mus musculus with 4 samples.

Results

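Gene deserts are long stretches of chromosome without an annotated gene, and the open chromatin inside them was examined in mouse embryonic stem cells (ESCs). The peaks of 4 ATAC-seq libraries were merged wherever they overlapped by at least 1 bp. A merged region was kept when it lay on an autosome, had less than 50% of its bases soft-masked as repeats, overlapped no gene body of GENCODE vM21 and was more than 50 kb from the nearest transcript start of any gene. These terms left 1814 gene desert regions out of 52714 merged regions in all, 50704 of them autosomal. Each library came from E14 cells, a mouse ESC line, grown in serum plus LIF and infected with a pLKO lentivirus that expressed a short hairpin RNA. One library carried a hairpin against GFP (shGFP) and 3 carried a hairpin against luciferase (shLuc 1, 2 and 3), and as the mouse has neither gene, both hairpins are non-targeting controls. Virus medium was replaced after 8 h, puromycin at 2 μg/ml selected the infected cells for 2 days, and the cells were collected 2 days later. The cells come from another inbred strain than the reference genome, shGFP has no replicate, and nothing states that the shLuc libraries came from separate cultures.

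ATAC-seq finds open chromatin with a transposase that inserts adapters where DNA is not wrapped up, and a peak is an interval where such insertions pile up. Open sites far from genes are typically enhancers, which bind transcription factors and act on promoters over long distances, or sites of CTCF, a zinc-finger protein that anchors chromatin loops. Gene deserts often flank genes that control development, whose enhancers can lie far away along the chromosome. In ESCs many distal enhancers bind OCT4 together with SOX2, the pair of factors that holds the pluripotent state, and KLF4 and ESRRB bind at many of the same sites.

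The deposited lists hold only the position of each peak, so sequence was read from the reference for the desert regions that all 4 libraries shared. The CTCF motif was searched as CCANNAGNNGGC, the joint OCT4-SOX2 motif as TTGTNATGCAAA, the octamer of OCT4 and its relatives as ATGCAAAT and the GC-rich box of the KLF and SP factors as GGGNGNGGC, each on both strands of the central 200 bp. The octamer and the OCT4-SOX2 motif share 7 letters and can overlap. The windows below show the motif match in capitals with 50 bases on either side, on the strand that reads the motif as spelled (build GRCm38, soft-masking not shown). For each motif they are the shared regions, up to 4 (3 for KLF-SP), with the match closest to the centre of the region. The 4 CTCF windows lie at chr4:153633361-153633472 on the minus strand (between Ajap1 and A430005L14Rik), chr7:115453437-115453548 on the plus strand (between Insc and Sox6), chr4:135066870-135066981 on the plus strand (between Syf2 and Runx3) and chr5:126623383-126623494 on the plus strand (between Tmem132b and Tmem132c).
Ajap1 CTCF window: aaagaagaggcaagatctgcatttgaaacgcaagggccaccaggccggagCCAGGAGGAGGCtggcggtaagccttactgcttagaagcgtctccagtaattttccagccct
Sox6 CTCF window: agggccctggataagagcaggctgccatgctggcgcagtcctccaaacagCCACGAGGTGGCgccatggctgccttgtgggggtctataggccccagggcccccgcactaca
Runx3 CTCF window: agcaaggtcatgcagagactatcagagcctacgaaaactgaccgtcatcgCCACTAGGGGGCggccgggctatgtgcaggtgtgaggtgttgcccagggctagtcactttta
Tmem132c CTCF window: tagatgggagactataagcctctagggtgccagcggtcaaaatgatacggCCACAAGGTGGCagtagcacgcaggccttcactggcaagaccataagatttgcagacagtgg

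A single shared region carried the OCT4-SOX2 motif. It lies at chr5:46172164-46173009 between Lcorl and Slit2, 239.8 kb from any transcript start, and its window is chr5:46172439-46172550 on the minus strand. The peak there was 842 bp wide in shGFP, and 404, 571 and 501 bp wide in shLuc 1, 2 and 3. The octamer windows are chr17:50427835-50427942 on the plus strand (between Dazl and Plcl2), chr3:56302925-56303032 on the minus strand (between Nbea and Tm4sf1), chr11:112959791-112959898 on the plus strand (between Sox9 and Slc39a11) and chr11:63533692-63533799 on the plus strand (between Pmp22 and Hs3st3b1).
Lcorl OCT4-SOX2 window: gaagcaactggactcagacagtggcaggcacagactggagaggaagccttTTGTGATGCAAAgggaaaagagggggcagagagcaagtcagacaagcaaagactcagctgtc
Plcl2 octamer window: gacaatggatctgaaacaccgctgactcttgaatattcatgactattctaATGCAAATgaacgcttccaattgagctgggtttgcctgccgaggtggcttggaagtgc
Nbea octamer window: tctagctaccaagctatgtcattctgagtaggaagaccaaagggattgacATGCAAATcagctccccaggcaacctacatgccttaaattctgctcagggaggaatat
Sox9 octamer window: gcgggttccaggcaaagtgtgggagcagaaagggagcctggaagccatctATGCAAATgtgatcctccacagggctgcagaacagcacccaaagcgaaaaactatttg
Hs3st3b1 octamer window: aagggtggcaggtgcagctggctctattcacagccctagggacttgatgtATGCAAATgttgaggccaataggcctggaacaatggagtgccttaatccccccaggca

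The 3 KLF-SP windows show plain unique sequence beside sequence that repeats itself. They lie at chr5:129270284-129270392 on the plus strand (between Adgrd1 and Sfswap), chr15:74187371-74187479 on the plus strand (between Gm6569 and Adgrb1) and chr10:66553309-66553417 on the minus strand (between Ctnna3 and Reep3). Of the words of 50 bases in these regions, 0%, 14.4% and 42.5% occurred more than once in the assembled chromosomes, although all 3 passed the limit on soft-masked bases.
Adgrd1 KLF-SP window: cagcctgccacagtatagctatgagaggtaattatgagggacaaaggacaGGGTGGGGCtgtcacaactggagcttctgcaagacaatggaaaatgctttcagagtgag
Adgrb1 KLF-SP window: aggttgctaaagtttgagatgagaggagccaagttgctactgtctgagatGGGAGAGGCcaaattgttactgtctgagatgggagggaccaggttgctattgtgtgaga
Reep3 KLF-SP window: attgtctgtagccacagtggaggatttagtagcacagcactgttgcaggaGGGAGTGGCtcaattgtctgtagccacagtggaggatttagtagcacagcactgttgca

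Gene desert regions were few beside open chromatin elsewhere. Of the autosomal regions, 41037 were under the limit on soft-masked bases, 12034 of these lay outside every gene body, and 1814, or 3.58% of autosomal regions, were also beyond 50 kb of a transcript start. A further 1963 regions met the terms on genes and distance but were mostly repeat sequence, and they were left out. The members closest to the distance limit lay 50.05, 50.06 and 50.09 kb from a transcript start and were found in 2, 2 and 3 libraries. The closest regions on the other side, at 49.98, 49.97 and 49.91 kb, were found in 3, 1 and 2 libraries. At the masking limit the last members had 49.9%, 49.8% and 49.8% of their bases masked, and the first regions left out had 50%, 50.1% and 50.1%.

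Members were compared with 9791 intergenic regions near genes, which met the same limit on masked bases and lay over 1 kb and at most 50 kb from a transcript start. The 4 lists differed in length, with 40290 autosomal peaks in shGFP and 17269, 39756 and 30336 in shLuc 1, 2 and 3. The reads behind the lists were not analysed here, and the study's sample sheet gives shLuc 1 the fewest ATAC-seq reads of the 4. The shLuc 1 library stood apart in number of peaks, and some values below are also given without it.

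The number of desert peaks differed strongly between libraries. The shGFP list had 1362 peaks in deserts, against 153, 1308 and 842 in the 3 shLuc lists, whose mean was 768 with an SD of 581 (n = 3). The shGFP list exceeded that mean by 594 peaks, about the size of the SD. As a share of the autosomal peaks of each list, deserts took 3.38% in shGFP (Wilson 95% interval 3.21 to 3.56), against 0.886%, 3.29% and 2.78% in shLuc 1, 2 and 3, whose mean was 2.32% with an SD of 1.27 (n = 3). The shGFP share was the highest and overlapped the interval of shLuc 2, while shLuc 1 was far below the other libraries. The difference of 1.06 percentage points between shGFP and the shLuc mean was smaller than the shLuc SD, and it was 0.348 points without shLuc 1 and 0.22 points at equal list length. With 1 library against 3 no permutation test can give a p below 0.25. The spread was smaller at equal list length. When each list was cut to its 17269 widest autosomal peaks, the shares were 1.49% in shGFP, and 0.892%, 1.54% and 1.37% in shLuc 1, 2 and 3. This cut kept the whole shLuc 1 list and removed the narrower peaks of the other lists. Desert peaks were narrower than autosomal peaks in general, with medians of 488 and 653 bp in shGFP. The part of this in the smaller spread was not tested.

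**Figure D1:**
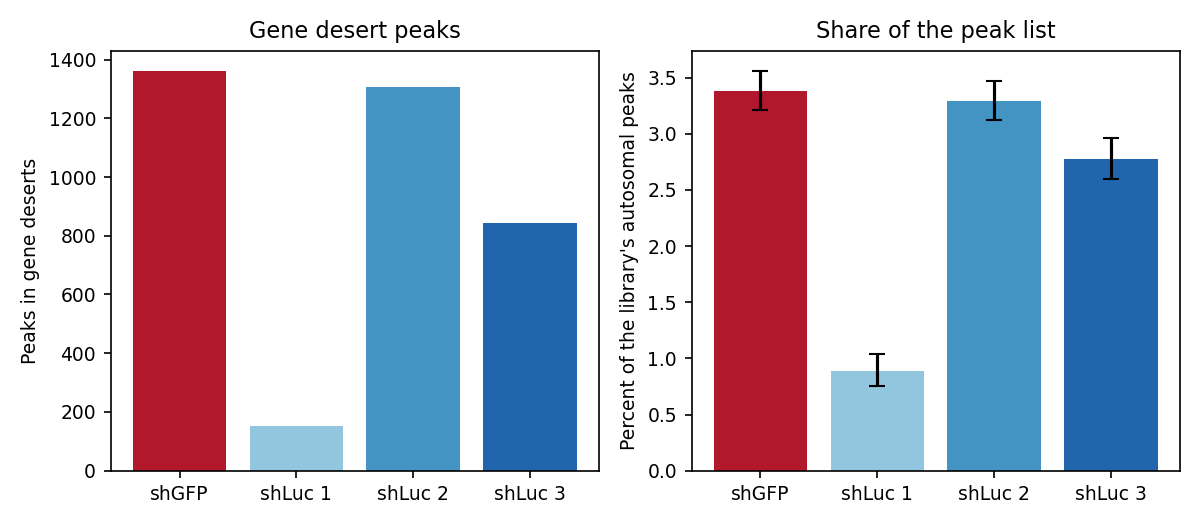
Number of peaks in gene deserts (left) and their share of the library's autosomal peaks in percent (right) for each library, with Wilson 95% intervals of counting error on the right. The shGFP and shLuc 2 libraries are alike at 3.38% and 3.29%, shLuc 3 is lower at 2.78% and shLuc 1 lowest at 0.886%.

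Few desert regions were shared by all libraries. Of 1814 members, 110 were found in all 4 libraries (6.06%, Wilson 95% interval 5.06 to 7.26), against 27.3% of all autosomal regions. Of the 1963 mostly masked regions that met the same terms on genes and distance, 627 (31.9%) were in all 4. A single library held 712 members (39.3%), against 28.4% of all autosomal regions, 38.0% of those near genes and 41.6% of intronic regions. Another 465 and 527 members were found in 2 and 3 libraries. Regions near genes were found in all 4 libraries in 984 of 9791 cases (10.1%, interval 9.47 to 10.7), intronic regions in 7.83% and promoter regions, within 1 kb of a transcript start, in 53.5%. The difference from regions near genes rested on shLuc 1. Without it, 631 of 1795 desert regions (35.2%) were found in all 3 remaining libraries, and so were 3379 of 9591 regions near genes (35.2%), while the share of all autosomal regions was 50.3%. Without shLuc 2 or shLuc 3 the desert share was 7.5% and 6.46%, against 12.3% and 12.9% near genes. The 3 longer lists therefore shared desert and near-gene regions to the same 3 digits, and the classes differed in how many regions the shortest list also held.

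**Figure D2:**
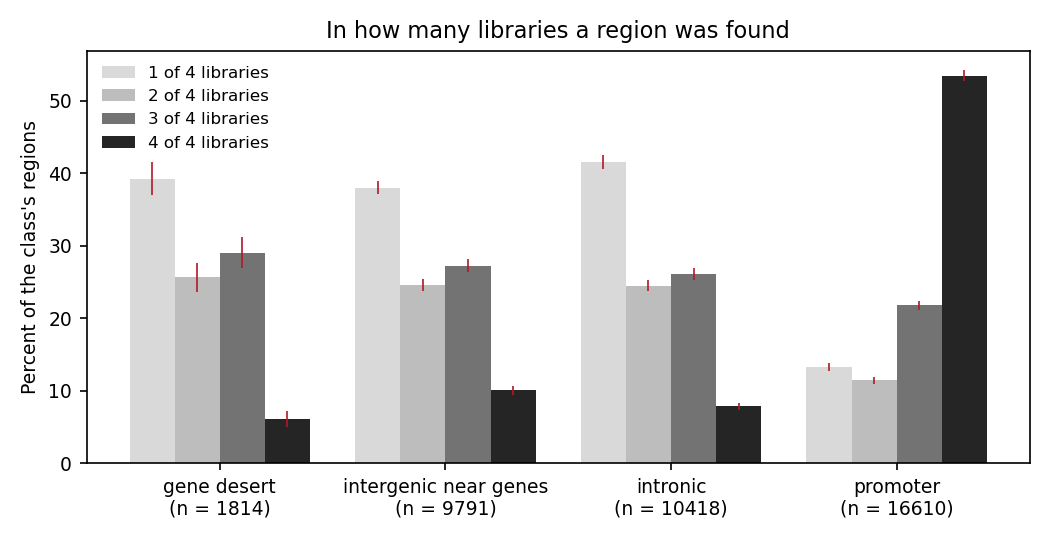
Percent of the regions of each class that were found in 1, 2, 3 or all 4 libraries, with Wilson 95% intervals of counting error as red lines. Gene desert, near-gene and intronic regions have similar profiles, with 6.06%, 10.1% and 7.83% in all 4 libraries, whereas 53.5% of promoter regions are in all 4.

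Pairs of libraries overlapped unequally, and the lists differ in length. Of the 1360 desert regions in shGFP, 69.3% were also in shLuc 2, 52% in shLuc 3 and 9.04% in shLuc 1. For the near-gene regions of shGFP these shares were 70.7%, 53.0% and 18.7%, and for all its autosomal regions 79.6%, 66.8% and 39.0%. Read from the other side, 72.1% of the 1308 shLuc 2 regions, 84% of the 842 shLuc 3 regions and 80.4% of the 153 shLuc 1 regions were in shGFP. Near genes these shares were 72.3%, 81.4% and 81.3%, and over all autosomal regions 80.7%, 88.7% and 90.9%. The most frequent pattern, with 521 members (28.7%, against 22.1% of all autosomal regions), was presence in every library but shLuc 1. Members found in shGFP alone numbered 334 (18.4%), against 11.7% of all autosomal regions, and 292 (16.1%, against 11.4%) were found in shLuc 2 alone. Near genes, 16.1% of regions were in shGFP alone, 15.2% in shLuc 2 alone and 24.5% in every library but shLuc 1. Single-library members were few in the shorter lists. There were 67 in shLuc 3 (3.69%, against 3.46% of all autosomal regions) and 19 in shLuc 1 (1.05%, against 1.88%). No member was found in every shLuc library and not in shGFP, against 174 of all autosomal regions (0.343%). Only regions in every shLuc library could be counted here, and these were 110 members and 14001 of all autosomal regions. All 110 of these members were also in shGFP, as were 13827 of the 14001 regions, so the count of 0 rests on few members. With a single shGFP library, the hairpin and the library cannot be told apart.

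Members found in more libraries were wider. The median width of the merged region was 358 bp for members in 1 library, 529 bp in 2, 711 bp in 3 and 842.5 bp in all 4, and merging adds to this because more peaks enter a region. For the 110 shared members the median peak was 682.5 bp wide in shGFP, and 417, 712 and 656 bp in shLuc 1, 2 and 3. The same sites were thus called narrower in shLuc 1. Members in all 4 libraries also had a higher GC content, 50.3% ± 5.55 (SD over 110 regions), than those in 3 libraries, 46.1% ± 4.84 (SD over 527 regions). They had a KLF-SP match in 14.5% of cases, against 7.59% of members in 3 libraries, and 7.30% and 6.88% of those in 1 and 2 libraries. Of the 527 members in 3 libraries, 521 lacked only shLuc 1. For peaks near genes, mean GC was 53.4% in shLuc 1, against 49.8%, 49.7% and 50.1% in shGFP and shLuc 2 and 3. The KLF-SP shares there were 13.3%, against 9.33%, 9.85% and 9.96%. The shLuc 1 list was also highest in both measures over all autosomal peaks. The part of this in the values of shared members was not tested. A CTCF match was found in 6.46%, 7.96%, 3.61% and 3.64% of members in 1, 2, 3 and 4 libraries.

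Under the limit on masked bases, desert peaks were sparser, had a lower mean GC content and had a CTCF motif less often than intergenic peaks near genes, in each of the 4 libraries. Deserts held 371 Mb of known sequence with 225 Mb unmasked, and intergenic sequence near genes held 829 Mb with 506 Mb unmasked. Per Mb of unmasked sequence, deserts had 6.05 peaks in shGFP and 0.68, 5.81 and 3.74 in shLuc 1, 2 and 3, whereas near genes there were 14.2, and 3.27, 13.9 and 9.23. The ratio of desert to near-gene density was 0.427 for shGFP, while shLuc 1, 2 and 3 gave 0.208, 0.419 and 0.405, with a geometric mean of 0.350. The ratio was lowest in shLuc 1, and the other 3 libraries lay between 0.405 and 0.427, whose geometric mean was 0.417. It was below 1 in 4 of 4 libraries, and the exact two-sided sign-flip permutation test over the 4 libraries gave the smallest p that 4 libraries allow, which cannot pass a threshold of 0.05 (adjusted p = 0.2 over 16 comparisons). The libraries overlap in their sites to different degrees, so their values are not independent.

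GC content followed the same order. The mean GC of desert peaks was 47.1% for shGFP, with 52.3%, 46.9% and 47.5% for shLuc 1, 2 and 3, against 49.8%, and 53.4%, 49.7% and 50.1% near genes. Desert peaks were lower by 2.69 percentage points for shGFP, with 1.04, 2.83 and 2.60 for the shLuc lists (mean -2.29 ± 0.84, SD, n = 4), in 4 of 4 libraries (exact sign-flip test, adjusted p = 0.2). Without shLuc 1 the mean difference was -2.71. With no limit on masked bases it reversed to 1.58. Desert sequence as a whole is also poorer in GC, at 39.2% against 41.6% for intergenic sequence near genes. Median peak width was close in both classes, at 488 bp in shGFP deserts and 380, 490 and 475 bp for shLuc 1, 2 and 3, against 498 bp, and 386, 496 and 492 bp near genes. The mean difference was -9.75 bp ± 5.19 (SD, n = 4), and it changed sign when only the widest peaks of each list were kept, to 9.13 bp.

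A CTCF motif was found in 77 of the 1362 desert peaks of shGFP (5.65%), and in 6 of 153 (3.92%), 59 of 1308 (4.51%) and 34 of 842 (4.04%) in shLuc 1, 2 and 3. Near genes the shares were 8.99% for shGFP, with 8.95%, 7.45% and 6.34% for the shLuc lists. The desert share was lower in 4 of 4 libraries, with a mean difference of -3.4 percentage points (-2.85 without shLuc 1, SD 1.16, n = 4, exact sign-flip test, adjusted p = 0.2). For the joint OCT4-SOX2 motif the libraries did not go one way. It was found in 7 desert peaks of shGFP (0.514%), with 0, 2 and 4 for the shLuc lists, where 0 of 153 peaks allows a share of up to 1.96%. The desert share was above the near-gene share in shGFP and shLuc 3 and below it in shLuc 1 and 2, and the mean difference of 0.02 percentage points was far smaller than its spread (SD 0.325, n = 4, exact sign-flip p = 1).

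**Figure D3:**
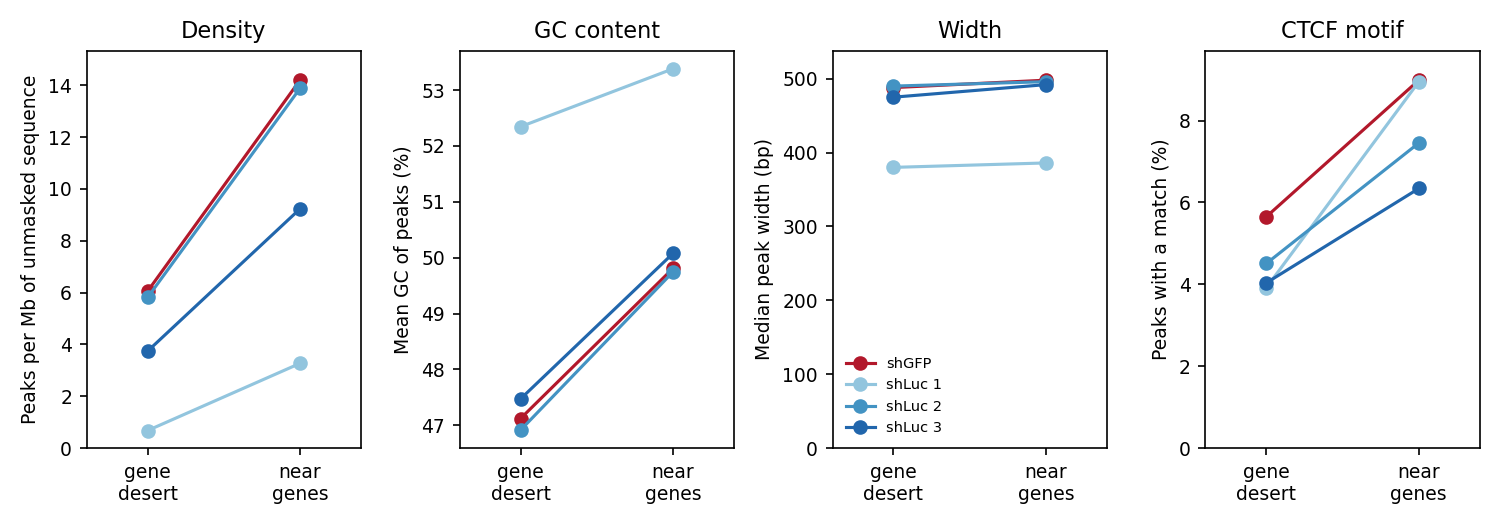
Density, mean GC content, median width and share of peaks with a CTCF motif for gene desert peaks and intergenic peaks near genes, 1 line per library. Density, GC and CTCF share rise from deserts to gene neighbourhoods in all 4 libraries, while width is nearly level; the GC axis does not start at 0.

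GC content and motif shares changed with distance from genes. The median member lay 80.9 kb from the nearest transcript start (quartiles 61.7 and 112 kb), and the farthest lay 453 kb away. Mean GC fell step by step, from 50.0% for regions 1 to 10 kb from a transcript start to 48.5% at 25 to 50 kb, 47.6% at 50 to 75 kb, 45.8% at 100 to 200 kb and 45.0% beyond 200 kb. The CTCF share was 9.15% at 1 to 10 kb, 9.30% at 10 to 25 kb, 6.54% at 25 to 50 kb, 6.29% at 50 to 75 kb and 4.72% beyond 200 kb. The octamer went the other way, from 2.18% at 1 to 10 kb to 3.62% at 25 to 50 kb, 3.65% at 50 to 75 kb, 3.38% at 75 to 100 kb, 5.33% at 100 to 200 kb and 8.49% beyond 200 kb, where it was found in 9 of 106 members. The steps on either side of 50 kb had close values for all 3 measures. Other motifs did not all rise with distance. Among members, a SOX match (motif given below) was in 4.91% at 50 to 75 kb, 6.40% at 100 to 200 kb and 2.83% beyond 200 kb. For the AP-1 motif, also given below, these shares were 11.3%, 11.7% and 8.49%. These are descriptions, with no test, and the part of the falling GC content in the motif shares was not tested.

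Every autosome had members. Chromosome 2 had the most with 172 and chromosome 19 the fewest with 28. Per Mb of unmasked desert sequence the density ran from 5.31 on chromosome 14 to 11.01 on chromosome 13, with a median of 8.45, and chromosome 12 (5.37) was close to the lowest. On all 19 autosomes the desert density was below that of near-gene regions. Members were mostly solitary. The median distance to the next member on the chromosome was 75.1 kb, and 309 members (17%) had another within 10 kb, in 131 pairs, 11 triplets and 3 larger groups.

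The members fell into the gaps between protein-coding genes, and most gaps with members had only a few. Of 1714 gaps that contain desert sequence, 860 (50.2%) held at least 1 member, 426 held exactly 1 and 79 held 5 or more. These 79 gaps held 484 of the 1814 members. The median member was 169 kb from the nearest protein-coding transcript start (quartiles 91.97 and 340 kb), and 64 were over 1 Mb away. The nearest transcript start of any kind belonged to a protein-coding gene for 461 members (25.4%), to a pseudogene for 567 and to a long noncoding RNA for 439.

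The fullest gap lay between Tmem132b and Tmem132c, a pair of related single-pass membrane proteins, on chromosome 5. It is 1449 kb long and held 12 members, 10 of them found in shGFP, 2 in shLuc 1, 10 in shLuc 2 and 7 in shLuc 3. Next was the gap between Auts2, a nuclear protein of neuronal development, and Castor2, an arginine sensor subunit, with 11 members of which 9, 1, 10 and 9 were found in shGFP and shLuc 1, 2 and 3. The gaps between Camk1g, a calmodulin-dependent kinase, and Plxna2, a semaphorin receptor, and between Olfm4, a secreted glycoprotein, and Pcdh17, a protocadherin, held 10 each. The second of these is 4420 kb long, so that it held 4.33 members per Mb of known desert sequence, close to the 4.89 per Mb of all gaps, against 27.9 per Mb between Tmem132b and Tmem132c.

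The densest of the 12 fullest gaps was also the shortest. The 309 kb between Tfap2c, an AP-2 transcription factor of trophoblast and germ cells, and Bmp7, a ligand of the BMP pathway, held 8 members, or 38.3 per Mb of desert sequence. Of these, 5 were found in shGFP, 0 in shLuc 1, 5 in shLuc 2 and 3 in shLuc 3, and none was found in all 4 libraries. The gap between Nr2f1, an orphan nuclear receptor, and Arrdc3, an arrestin-domain protein, held 9. Gaps with 8 were those between Ddx18, an RNA helicase, and Dpp10, a potassium channel subunit, between Sall1, a zinc-finger factor, and Tox3, an HMG-box factor, between Cntn5, a contactin, and Jrkl, between Hace1, a ubiquitin ligase, and Grik2, a kainate receptor, and between Smad2, a transducer of nodal and activin signals, and Skor2, a corepressor. Together the 12 gaps held 107 members (5.9%), 6 of which were in all 4 libraries.

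**Figure D4:**
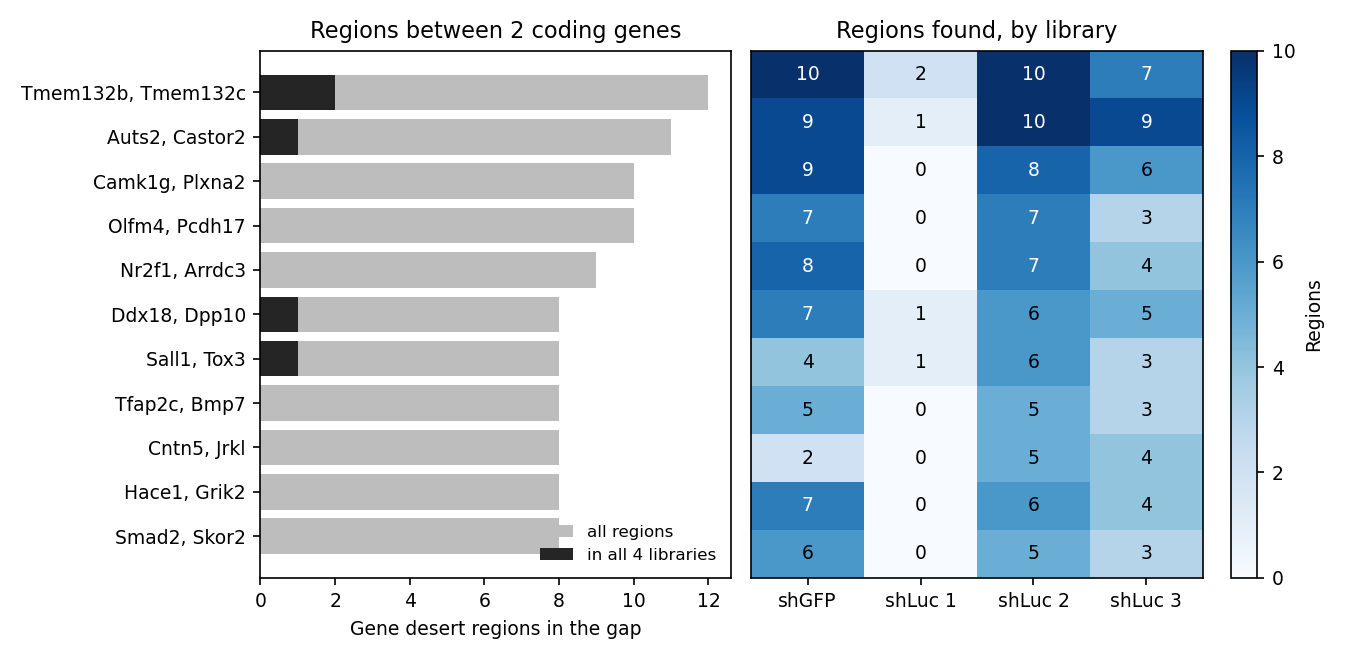
The 11 gaps between neighbouring protein-coding genes with the most gene desert regions, as all regions (gray) and regions in all 4 libraries (black), and the number found in each library (right). The gap between Tmem132b and Tmem132c leads with 12 regions, and shLuc 1 found at most 2 regions in any of these gaps.

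Each member was assigned to the protein-coding gene with the nearest transcript start, which says nothing about the gene it may act on. By this assignment 998 of 20780 autosomal protein-coding genes (4.8%) were nearest to at least 1 member. Genes differ in whether they border a desert at all, as 2829 of them (13.6%) flank a gap with desert sequence, and 34.7% of those were nearest to a member. Among 48 autosomal pluripotency genes, 20 flanked desert sequence and 10 were nearest to a member, with 19 members in all. Among 149 lineage transcription factors, 94 flanked desert sequence and 42 were nearest to a member, with 85 members. Among 87 genes of signalling ligands, receptors and inhibitors the numbers were 44 and 24, with 39 members, and among 113 synaptic and cell adhesion genes they were 101 and 63, with 146 members. Of the flanking genes of each list, 50%, 44.7%, 54.5% and 61.4% were nearest to a member, read against 34.7% for all genes. These are counts without a test, and the amount of desert sequence beside each gene was not accounted for. The lists were also chosen with earlier results of these data known.

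The 10 pluripotency genes nearest to a member had 1 to 3 members each. For Sox2, a core factor of the ESC state, the nearest member lay 377 kb from its start at chr3:35027454-35028401 and was found in all 4 libraries, and another at 434 kb was found in every library but shLuc 1. For Klf4, one of the reprogramming factors, 3 members lay 144 to 519 kb away, and the farthest, at chr4:56051765-56052541, was found in all 4 libraries. The other 2 were found in shLuc 2 and 3 and in shLuc 3 only. Esrrb, an orphan nuclear receptor of naive ESCs, had 1 member at chr12:86556738-86557315, 52.3 kb from its start, found in shGFP, shLuc 1 and shLuc 2. Tfcp2l1, another naive factor, had 1 member 132 kb away, in shGFP and shLuc 3.

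The other pluripotency genes had members that no more than 3 libraries found. Myc, a growth regulator, had 3 at 57.1 to 513 kb, in 3, 2 and 1 libraries. Sall1 had 3 at 201 to 438 kb, in 1, 3 and 1 libraries, and Fbxo15, an early ESC marker, had 3 at 190 to 668 kb, in 2, 2 and 3 libraries. Zfp42 (Rex1), Nr5a2 and Jarid2, a subunit of Polycomb repressive complexes, had 1 each, and each of these was found in a single library, in shGFP for Zfp42 and in shLuc 2 for the other two.

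Among lineage factors the most members were nearest to Tfap2c with 7 and Gata3, a zinc-finger factor of trophoblast and T cells, with 6. None of these was in all 4 libraries. Sox6 and Sox9, factors of cartilage development, had 5 each, with 1 each in all 4 libraries, and the Sox6 and Sox9 windows are among the sequences printed above. Dach1, a retinal and limb factor, and Klf6, a zinc-finger factor, had 4 each. Among signalling genes, Inhba, the activin A subunit, had 6 members from 85.5 to 791 kb away, of which 4, 1, 4 and 5 were found in shGFP and shLuc 1, 2 and 3. Bmp2, a BMP ligand, had 4, Tgfbr2, a TGF-beta receptor, 3, and Nog, an inhibitor of BMPs, Dkk2, a modulator of WNT, and Fgf20, an FGF ligand, 2 each. Rspo3 and Spred2 also had 2 each.

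Among synaptic and adhesion genes, Pcdh17 had 8 between 136 and 1976 kb from its start, 6 of which were in shGFP, 0 in shLuc 1, 6 in shLuc 2 and 3 in shLuc 3. Tenm4, a teneurin, had 6. Cdh20, a cadherin, Cntn5, Csmd3, Epha7, an ephrin receptor, Tenm2 and Tmem132c had 5 each. Of the genes named here only Epha7 and Tmem132c had a member in all 4 libraries, 1 each.

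The shared members farthest from any transcript start were 232 to 369 kb from one. The farthest, at chr1:114849240-114850278 between Dsel and Cntnap5a, a contactin-associated protein, was 369 kb from any transcript start and 834 kb from a coding one. Its peak was 953 bp wide in shGFP and 426, 793 and 843 bp in shLuc 1, 2 and 3. The next were at chr18:11351932-11352623 between Gata6, a factor of endoderm, and Rbbp8, 272 kb from any start, and at chr18:73182642-73183337 between Dcc, a netrin receptor, and Mex3c, 262 kb away. The fourth is the region with the OCT4-SOX2 motif beside Lcorl, and the fifth, at chr16:9390637-9391549 between 1810013L24Rik and Grin2a, an NMDA receptor subunit, was 232 kb from any start. In all 5 the shLuc 1 peak was the narrowest of the 4. Their GC content ran from 42.9% to 60.5%.

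The widest shared members had peaks of over 1 kb in at least 2 libraries each. At chr12:12176389-12177981, between Rad51ap2 and Fam49a, the peak was 1593 bp wide in shGFP and 423, 1574 and 1449 bp in shLuc 1, 2 and 3. At chr11:12810957-12812446, between Cobl and Pom121l12, the widths were 1009 bp, and 423, 1490 and 977 bp. The others lay between Ctnnd2 and Dap (1424 bp) and between Gm9376 and Abcc4 (1374 bp), where the merged width is given. In each of these 4 the shLuc 1 peak was the narrowest, at most 544 bp.

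The widest of the 334 members found in shGFP alone lay at chr1:5778157-5779415 between Oprk1 and Npbwr1 (1259 bp), chr7:51327109-51328182 between Nell1 and Ano5 (1074 bp) and chr8:112411135-112412154 between Terf2ip and Cntnap4 (1020 bp). In the second, 68.6% of the 50-base words occurred more than once in the genome, against 7.69% in the first and 0% in the third. The median width of the 334 was 345.5 bp.

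Most members were unlike promoters in sequence. The median ratio of observed to expected CpG was 0.182 in members and 0.232 in regions near genes, against 0.673 in promoter regions. By a GC content of at least 50% and a ratio of at least 0.6, 23 members (1.27%) were CpG-rich, against 374 near-gene regions (3.82%) and 60.2% of promoter regions. Of the 23, 6 were in all 4 libraries. A pair of these 6 lay in the same gap before Abcc4, at chr14:118436851-118437952 and chr14:118473256-118474629, and the others lay beside Grik3, Kcnk1, Hmga2 and Efcab1. The region beside Kcnk1, at chr8:126138623-126139787, had a GC content of 66.9%.

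Members were also mostly unique sequence, and the rule had already left out regions that were mostly masked repeats. In 1572 of 1814 members no word of 50 bases occurred a second time in the assembled chromosomes. The same held for 8169 of 9791 regions near genes. In 20 members (1.1%) more than 50% of the words occurred more than once, against 318 regions near genes (3.25%). No member shared a word with the mitochondrial genome. Of the 20, 7 lay in 46.8 kb between Hrh1 and Atg7 on chromosome 6, and this group was singled out after its values were seen. Between 83.3% and 100% of the words of these 7 were repeated and their GC content was 59.1% to 64.4%. They were found 3 times in shGFP, and 5, 2 and 3 times in shLuc 1, 2 and 3, so that the shortest list had the most of them. The study's methods place reads with several equal alignments at one of them at random, and the part of this in these peaks was not tested.

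Motif matches were set against all desert sequence. Desert territory was divided into 1234703 windows of 200 bp with known bases and under 50% masked, and 0.445% of these held the CTCF motif, against 106 of 1814 members (5.84%, Wilson 95% interval 4.85 to 7.02), 8.64% of regions near genes and 5.42% of all autosomal regions. The OCT4-SOX2 motif was in 6 members (0.331%, interval 0.152 to 0.72) and 0.0279% of windows, and in 0.235% of regions near genes. Of the 6, 4 also had the octamer match. The octamer itself was in 78 members (4.3%, interval 3.46 to 5.33), 1.83% of windows, 2.76% of regions near genes and 2.2% of all regions. Per library, desert peaks had an octamer match more often than near-gene peaks in 4 of 4, by 1.18 percentage points in shGFP and 2.40, 1.98 and 2.59 in shLuc 1, 2 and 3 (exact sign-flip test, adjusted p = 0.2). The part of the lower GC content of desert peaks in this was not tested.

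The KLF-SP box was in 7.72% of members and 1.44% of windows, against 9.24% near genes and 24.1% of promoter regions. The ESRRB motif TCAAGGTCA was in 19 members (1.05%) and 0.348% of windows, and the AP-1 motif TGANTCA in 208 (11.5%) and 7.35%. The SOX motif AACAATG, which is rich in A and T, was in 5.4% of members and 4.92% of windows, while it was in 3.64% of regions near genes. The TEAD motif ACATTCC was in 5.51% of members and 3.16% of windows and STAT, TTCCNGGAA, in 0.827% and 0.535%. Some motifs were rare in members, with NRF1 (GCGCNTGCGC) and REST (GGACNGCGCC) in 2 each (0.11%) and YY1 (AAGATGGCG) and ETS (CCGGAAGT) in 4 each (0.221%). Near genes NRF1, REST, YY1 and ETS were in 0.347%, 0.123%, 0.184% and 0.49% of regions. Over all autosomal regions the shares were 1.23%, 0.282%, 4.55% and 1.19%. For REST and YY1 the share in members was thus close to that near genes. All 13 motifs had a higher share in members than in windows, but members were also richer in GC, with 46.8% against 38.4%, and the part of base composition was not tested. Set against near-gene peaks, desert peaks also had the SOX, TEAD and AP-1 motifs more often in 4 of 4 libraries. The mean differences were 2.59, 0.455 and 0.786 percentage points, against 2.04 for the octamer (exact sign-flip test, adjusted p = 0.2 for each). The CTCF, NRF1 and ETS motifs were lower in 4 of 4, and the remaining motifs did not go one way. In all, 665 members (36.7%) held at least 1 of the motifs.

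**Figure D5:**
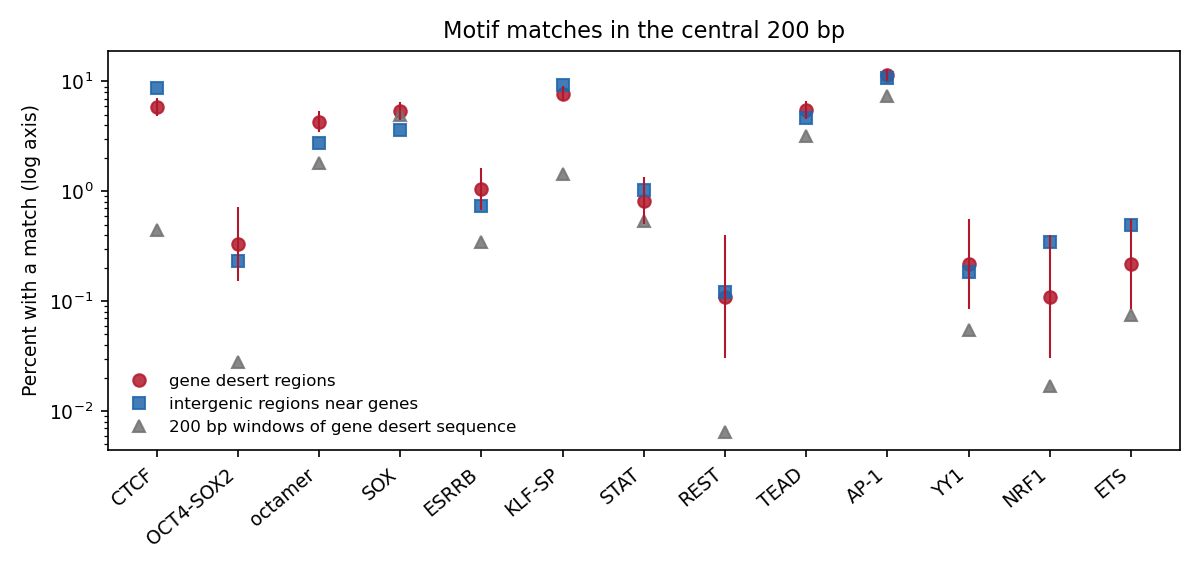
Percent of gene desert regions (with Wilson 95% intervals), intergenic regions near genes and 200 bp windows of gene desert sequence with a match to each of 13 motifs in the central 200 bp, on a log axis. The CTCF motif is in 5.84% of desert regions, 8.64% of near-gene regions and 0.445% of windows, and the octamer in 4.3%, 2.76% and 1.83%.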

How the data were processed

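ATAC-seq peak lists were analysed for 4 libraries, 1 of shGFP and 3 of shLuc. The authors deposited 1 list per library, with the chromosome, start and end of each peak and no score, count or p-value. The submitters' processing notes name bcl2fastq, Bowtie2, MACS2 and mm10, without versions or roles. Per the study's methods for its chromatin data the best alignment of each read was kept, and reads with several equal positions were assigned to one of them at random. The peak threshold and any shift of reads for the transposase are not given in the sources used here. The reads behind each peak cannot be recovered from the lists, and the part of depth in the number and width of peaks was not tested.

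Peaks were merged across libraries (at least 1 bp of overlap) and each region was scored as present in the libraries with an overlapping peak. Soft-masked bases came from GRCm38, which has the coordinates of mm10, and genes from GENCODE vM21. Coordinates count from 1. Desert and near-gene territories are the bases that meet the same terms on genes and distance, and densities are per Mb of their unmasked bases (known bases for the setting without a mask limit). Motifs were exact letter matches. Analysis used Python 3.11.15, numpy 2.4.6, scipy 1.17.1 and numba 0.67.0, and figures matplotlib 3.10.9. The interval, motif, word and sign-flip functions were tested on simulated data. Desert and near-gene peaks were compared within each library by an exact two-sided sign-flip permutation test over 4 libraries. Wilson 95% intervals cover counting error over peaks or regions only.

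The members, gene lists and motifs were chosen with earlier results of these data known. Named regions are the 5 farthest and the 5 widest members found in all 4 libraries, the 3 widest found in shGFP alone, and the 3 widest found in every shLuc library but not shGFP (there were none). Named genes flank the 12 gaps with the most members, or have the most members in 1 of 4 gene lists (up to 6 a list and any that tie with the last, all for pluripotency genes). One gap and one region that these rules choose are not reported here. Sequences are those whose match lies nearest to the centre of a shared region, at most 4 a motif (3 for KLF-SP), with chromosome 18 left out. Gaps run between the bodies of neighbouring protein-coding genes. Alternatives were distance limits of 25 and 100 kb, coding genes only, other mask limits, merging within 500 bp, lists of equal length, presence by coverage, other windows and leaving out each shLuc library.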

Additional observations from a re-analysis of the deposited data

Results flagged for a closer look

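The rule keeps autosomes only. On the X chromosome, outside the comparisons above, 55 regions met its other terms, and they are given because no comparison used them. They made 3.57 regions per Mb of unmasked desert sequence, against 8.06 on the autosomes. The shGFP list held 40 of them, shLuc 2 held 45, shLuc 3 held 21 and shLuc 1 held 1, and 1 was found in all 4 libraries. The difference from the autosomes was not tested.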

How the results depend on the processing

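Of 84 alternative values over 8 results and 13 settings, 6 reversed, 13 moved past the spread between libraries, the counting interval or 1.5 times the count, and 65 did neither, although some of these changed in size. The number of gene desert regions was 3939 at a limit of 25 kb, 575 at 100 kb, 6125 with protein-coding genes only, 3777 with no limit on masked bases and 510 from the widest peaks at equal list length. The percent in all libraries was 7.36 at 25 kb, 4.87 at 100 kb, 8.85 with coding genes only, 19.5 with no limit on masked bases and 2.92 when presence needed 50% of the region. Leaving out a shLuc library gave 6.46 to 35.2, the highest without shLuc 1. The shGFP minus shLuc difference in desert share was 2.62 percentage points with coding genes only, 0.391 at 100 kb, 0.348 without shLuc 1 and 0.22 at equal list length. The density ratio was 0.634 with no limit on masked bases and the OCT4-SOX2 difference 0.287 at 25 kb. With no limit on masked bases the GC difference reversed to 1.58 percentage points, the width difference to 82 bp and the OCT4-SOX2 difference to -0.0431, and at equal list length width reversed to 9.13 bp and OCT4-SOX2 to -0.139; the causes were not tested. The OCT4-SOX2 difference ran from -0.058 without shLuc 3 to 0.149 without shLuc 1. The density ratio and the CTCF difference kept their direction in each alternative run. No paired analysis was possible because the labels do not pair shGFP with any shLuc library. With 4 libraries, or 3 after leaving one out, no sign-flip test could pass 0.05, so p-values say nothing about stability. The reads behind each peak are unknown, which limits how far absence from shLuc 1 can be read.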
